A study of Mus musculus with 2 samples.

Results

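Regulatory T cells (Tregs) of mouse MC38 tumours were taken as barcodes with at least 1 UMI of Foxp3 and at least 1 UMI of Cd3d, Cd3e or Cd3g, and with no UMI of Cd8a, Cd8b1, Csf1r or Ncr1. A UMI is a molecular tag that counts 1 captured RNA molecule. A barcode also needed at least 500 UMIs in all and at most 10% mitochondrial UMIs. The rule gave 384 Tregs among 67031 filtered cells, of which 138 came from the BiDT library and 246 from the Ctrl library. Foxp3, the Cd3 genes and the genes required to be absent chose the cells, so their values are given as description. Members were thus chosen by measured UMIs of these genes, and by no other readout.

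Tregs are CD4 T cells that hold back immune responses, and Foxp3 is the transcription factor that defines them. They bind interleukin 2 through the high-affinity receptor chain CD25, the product of Il2ra. They display CTLA-4, which takes costimulatory ligands away from antigen-presenting cells. In tumours they often carry receptors of the TNF family, ICOS, CCR8 and other marks of activation, and they can release interleukin 10 and TGF-beta. Type I interferon signals through the receptor chains IFNAR1 and IFNAR2 to factors that include STAT2 and IRF9, which bind promoter elements of interferon-stimulated genes.

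The series asked how a fusion protein of an antibody against TIM3 and interferon affects leukocytes inside MC38 tumours, which grow from a mouse colon carcinoma line. Tumours of BiDT-treated and control mice were digested on day 19 after inoculation, and living CD45+ leukocytes were sorted for single-cell sequencing. Both libraries belong to batch 1, and each combines 5 biological replicates in 1 library. The labels do not spell out BiDT, dose or schedule, nor what the Ctrl group received, and the strain, sex and age of the mice are not given in the sources used here. With 1 library for each treatment there is no replicate and no test, and all intervals below are 95% intervals of counting error alone.

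The BiDT library held 34996 barcodes with a median of 2652 UMIs, and the Ctrl library held 34310 with a median of 4126. The mitochondrial filter removed 573 BiDT and 1702 Ctrl barcodes, and no barcode was under 500 UMIs. Within Tregs the depths were closer, with medians of 2659.5 UMIs and 1349.5 genes in BiDT cells and 2874.5 UMIs and 1466 genes in Ctrl cells. All Tregs together gave 463374 UMIs in BiDT and 899627 UMIs in Ctrl. The 2 libraries shared 713 barcode sequences, of which 0 were Treg barcodes. No doublet caller was run. A few Tregs were very large: 4 BiDT cells and 6 Ctrl cells exceeded 3 times the median of their library and held 19.1% of the Treg UMIs in BiDT and 13.3% in Ctrl. Genes for which such cells set the value are named below with that fact.

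The cells carried the markers of their name beyond Foxp3. Il2ra was detected in 84.8% of BiDT Tregs and 87.4% of Ctrl Tregs. Ikzf2, which encodes the Treg-associated factor Helios, was detected in 81.2% of BiDT and 79.7% of Ctrl Tregs. Tnfrsf18, which encodes the costimulatory receptor GITR, was detected in 89.1% of BiDT and 91.5% of Ctrl Tregs. Ccr8, a chemokine receptor of tumour Tregs, was sparse, at 10.9% of BiDT and 9.35% of Ctrl Tregs. At least 2 of these 4 markers were present in 92.8% of BiDT Tregs and 91.5% of Ctrl Tregs. The same held for 49.0% of BiDT and 48.6% of Ctrl CD4 T cells with a Cd4 UMI and no Foxp3 UMI, and for 34.3% of BiDT and 32.4% of Ctrl CD8 T cells. In cells with Csf1r, a macrophage and monocyte receptor, and no Cd3 UMI it held for 1.39% in BiDT and 1.00% in Ctrl. Cd4 itself was detected in 42.0% of BiDT Tregs and 56.1% of Ctrl Tregs, at a median depth below 3000 UMIs.

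**Figure D1:**
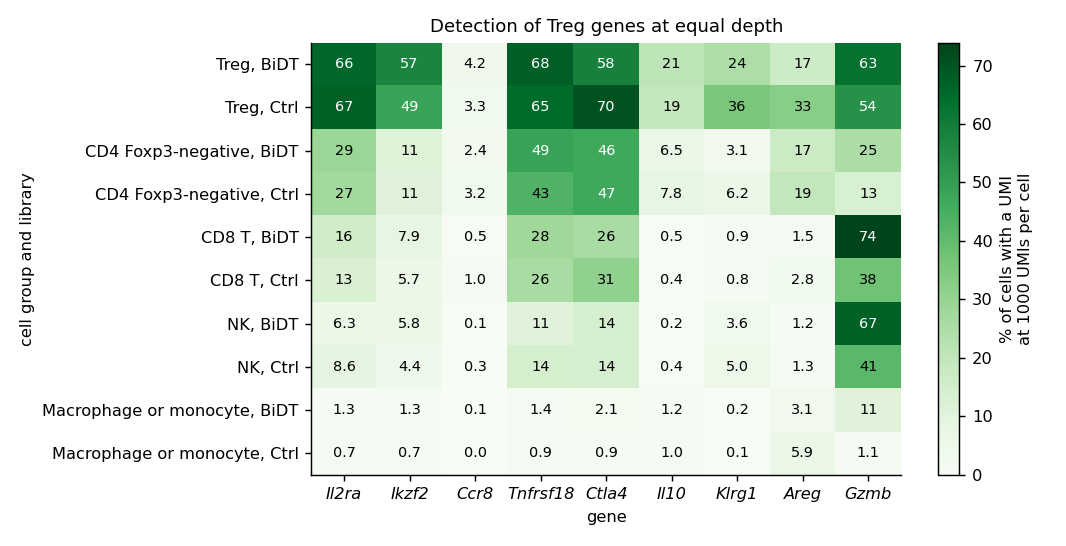
Heat map of the expected percent of cells with at least 1 UMI of each gene (columns) when every cell is thinned to 1000 UMIs, for 5 cell groups in BiDT and in Ctrl (rows). Il2ra, Ikzf2 and Klrg1 are darkest in the Treg rows of both libraries, Gzmb is also dark in CD8 T and NK cells, and Klrg1 and Areg are paler in BiDT Tregs than in Ctrl Tregs.

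Just inside and outside the rule the marker values were as follows. Of the Tregs, 79 BiDT cells (57.2%) and 92 Ctrl cells (37.4%) had exactly 1 Foxp3 UMI. Il2ra was detected in 78.5% of these BiDT cells and 83.7% of these Ctrl cells, against 93.2% of BiDT and 89.6% of Ctrl Tregs with 2 or more Foxp3 UMIs. Foxp3-positive cells left out because no Cd3 UMI was seen, all other criteria met, numbered 45 in BiDT and 52 in Ctrl, and Il2ra was detected in 44.4% of them in BiDT and 30.8% in Ctrl. Cells left out for a Csf1r UMI numbered 25 in BiDT (median depth 5830 UMIs) and 93 in Ctrl (7585 UMIs). Foxp3 was found in 0.175% of BiDT and 0.468% of Ctrl Csf1r-positive cells without Cd3, which should lack it, at median depths of 3719.5 UMIs in BiDT and 5607.5 UMIs in Ctrl.

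Tregs made up a smaller share of the leukocytes in the BiDT library. They were 0.401% (0.337 to 0.473%) of filtered cells in BiDT and 0.754% (0.663 to 0.854%) in Ctrl, a log2 ratio of -0.91 (-1.22 to -0.61). Of cells with a Cd3 UMI and neither Csf1r nor Ncr1, Tregs were 138 of 6729 in BiDT, or 2.05% (1.73 to 2.42%), and 246 of 3680 in Ctrl, or 6.68% (5.90 to 7.54%). That is a log2 ratio of -1.70 (-2.02 to -1.40), or a 3.26-fold lower share. Among those Cd3-positive cells without a Cd8 UMI, Tregs were 4.65% in BiDT and 15.4% in Ctrl. Foxp3-negative CD4 T cells numbered 241 in BiDT and 245 in Ctrl, beside the 138 and 246 Tregs, so the difference is smaller against them. Those CD4 cells needed a Cd4 UMI, and Tregs with a Cd4 UMI numbered 58 in BiDT and 138 in Ctrl. For each Treg there were 27.1 CD8 T cells in BiDT and 8.34 in Ctrl.

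The lower share also appeared at equal depth. With each cell thinned to 1000 UMIs before the rule was applied, Tregs were 0.198% of filtered cells in BiDT and 0.411% in Ctrl, and 1.26% of Cd3-positive cells in BiDT against 4.12% in Ctrl. When Csf1r was allowed, a choice made after seeing the data, Tregs were 1.96% of Cd3-positive cells in BiDT and 5.96% in Ctrl. With 2 Foxp3 UMIs required the log2 ratio of the share of Cd3-positive cells was -2.25, and without cells holding 2 or more UMIs of 12 macrophage genes it was -1.50. Membership rests on catching a Foxp3 UMI, so fewer Tregs and less Foxp3 RNA in each Treg cannot be told apart. Within the Tregs Foxp3 summed to 599.9 UMIs per 1000000 Treg UMIs (CPM, the scale of all levels here) in BiDT and 711 CPM in Ctrl.

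**Figure D2:**
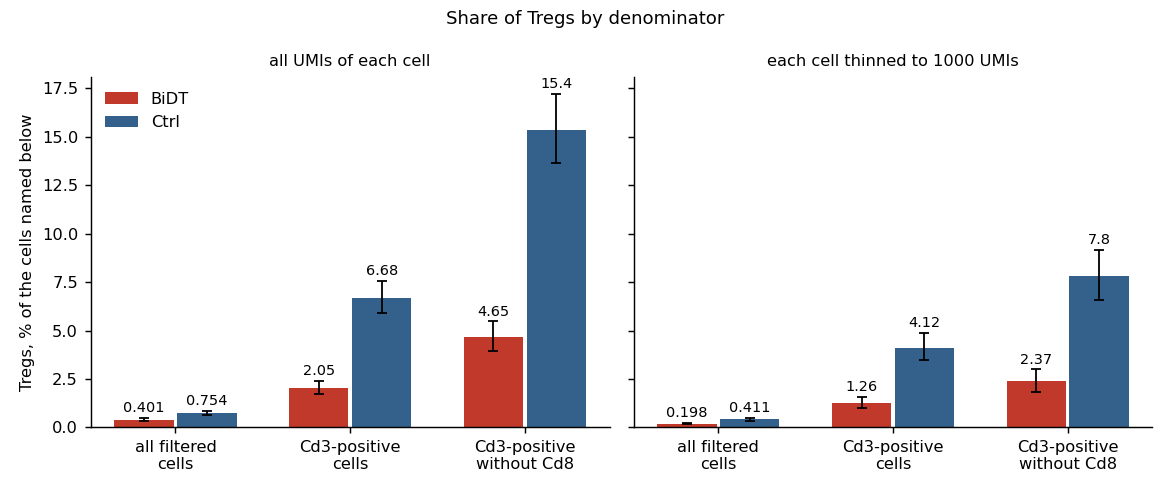
Tregs as a percent of all filtered cells, of Cd3-positive cells and of Cd3-positive cells without Cd8, BiDT beside Ctrl, with exact binomial intervals of counting error. In each denominator the BiDT share lies below the Ctrl share with no overlap of the intervals, at full depth and at 1000 UMIs per cell.

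Interferon-stimulated genes carried the highest ratios in Tregs. The list of 60 type I interferon genes had 57 in the files, and their summed level was 16606 CPM (16238 to 16982) in BiDT Tregs and 3673 CPM (3548 to 3800) in Ctrl Tregs, which is 4.52-fold higher. Free RNA captured along with the cells, scaled from the macrophage genes seen in Tregs, would give 3274 CPM of that sum in BiDT and 439 CPM in Ctrl. The list held 52 genes with at least 50 Treg UMIs over both libraries, and 51 of them were at least 1.5 times higher in BiDT and 0 at least 1.5 times lower. Across all 4745 genes with that many UMIs, 11.8% were 1.5 times higher and 9.0% were 1.5 times lower. The median log2 ratio of the 52 genes was 2.29, against 0.02 over all 4745. A gene that is low in Ctrl enters this count only through its BiDT level, so the sum over all 57, which includes the 5 below 50 UMIs, is the measure without that filter. The list was chosen with earlier results of these data known, so neither the count nor the sum is independent of them. Ifit2 and Rsad2 were within reach of free RNA.

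The 3 list members with the highest ratios among those with a motif in their promoter are shown with their sequences. The motif was part of the choice, so its presence in each is not a result. Ifi44 (5.54) and Usp18 (4.64) had higher ratios than Ifit1 (4.57) and were not taken by that choice. The windows of Ifit3 and Ifit3b share long runs of the same bases, so they are not independent of each other. Ifit3, Ifit3b and Ifit1 encode tetratricopeptide proteins of the antiviral response, of which IFIT1 binds foreign RNA and IFIT3 joins it, and they are neighbours on chromosome 19. The 250 bases before each annotated start are given 5′ to 3′ on the + strand, from RefSeq on GRCm38.p6, for chr19:34583279-34583528 (Ifit3), chr19:34607707-34607956 (Ifit3b) and chr19:34640639-34640888 (Ifit1). The counts were made on another build, so these coordinates belong to the sequence table and not to the count files. Capitals mark GAAA, 2 bases of any kind, then GAAA, a core of the interferon-stimulated response element, which reads here as its reverse complement.
Ifit3: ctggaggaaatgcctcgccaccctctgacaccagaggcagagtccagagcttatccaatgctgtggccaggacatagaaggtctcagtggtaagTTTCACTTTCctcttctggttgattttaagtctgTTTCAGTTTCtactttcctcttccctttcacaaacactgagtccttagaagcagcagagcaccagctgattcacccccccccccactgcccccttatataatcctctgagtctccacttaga
Ifit3b: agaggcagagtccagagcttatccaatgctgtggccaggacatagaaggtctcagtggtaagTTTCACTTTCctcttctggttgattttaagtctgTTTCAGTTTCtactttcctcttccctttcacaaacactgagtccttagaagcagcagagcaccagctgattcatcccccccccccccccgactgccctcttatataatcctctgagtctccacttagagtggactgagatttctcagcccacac
Ifit1: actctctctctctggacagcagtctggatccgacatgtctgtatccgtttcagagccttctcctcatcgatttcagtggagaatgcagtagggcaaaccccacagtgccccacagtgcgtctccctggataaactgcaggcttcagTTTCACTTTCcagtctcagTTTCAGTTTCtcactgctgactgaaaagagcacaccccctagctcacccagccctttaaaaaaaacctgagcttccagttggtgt
Each window holds 2 copies, whose first printed bases lie at -156 and -122 from the start of Ifit3, -188 and -154 of Ifit3b, and -104 and -85 of Ifit1. On either strand the motif occurred in 20 of 47 matched promoters of the type I list (42.6%) and in 936 of 27025 promoters of all genes (3.46%). It occurred in 11 of 16 interferon gamma list promoters (68.8%), in 0 of 13 promoters of the Treg core list and in 1 of 21 (4.76%) of the tumour effector list. A match describes letters in this window and is not a measured binding site.

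Several antiviral genes were rare in Ctrl Tregs. Ifit3 was at 339 CPM in BiDT Tregs and 5.56 CPM in Ctrl Tregs, a log2 ratio of 5.93 (4.68 to 7.57). It was detected in 43.5% of BiDT Tregs and 2.03% of Ctrl Tregs. Ifit3b was at 114 CPM in BiDT Tregs and had 0 UMIs in Ctrl Tregs, which gives a log2 ratio of at least 5.10 against a floor of 3 UMIs over all Ctrl Tregs. Ifit3 and Ifit3b are close copies, so the split of reads between them is uncertain. Ifit1 was at 369 CPM in BiDT and 15.6 CPM in Ctrl, and was detected in 50.7% of BiDT and 3.66% of Ctrl Tregs. Ifi44, an interferon-induced cytoplasmic protein, was at 104 CPM in BiDT and 2.22 CPM in Ctrl. Genes of the oligoadenylate synthetase family, which sense double-stranded RNA, followed the same direction: Oas3 was at 222 CPM in BiDT and 18.9 CPM in Ctrl, and Oas2 was at 92.8 CPM in BiDT and 7.78 CPM in Ctrl. Cmpk2, a nucleotide kinase, was at 132 CPM in BiDT and 10.0 CPM in Ctrl.

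Isg15 and Bst2 were already seen in over 30% of Ctrl Tregs and were higher as well. Isg15, a ubiquitin-like modifier, was at 1670.4 CPM in BiDT Tregs and 153 CPM in Ctrl Tregs, a log2 ratio of 3.44 (3.18 to 3.72), and was found in 78.3% of BiDT and 30.9% of Ctrl cells. Bst2, or tetherin, which holds budding virus at the membrane, was at 1606 CPM in BiDT and 183 CPM in Ctrl, and was found in 87.0% of BiDT and 36.6% of Ctrl cells. Usp18, which removes ISG15 from proteins and damps the interferon receptor, was at 276 CPM in BiDT and 11.1 CPM in Ctrl, a log2 ratio of 4.64. Of the signalling factors, Irf7 was at 483 CPM in BiDT and 57.8 CPM in Ctrl, and Stat2 was at 371 CPM in BiDT and 72.3 CPM in Ctrl. Irf9 was at 170 CPM in BiDT Tregs and 97.8 CPM in Ctrl Tregs.

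**Figure D3:**
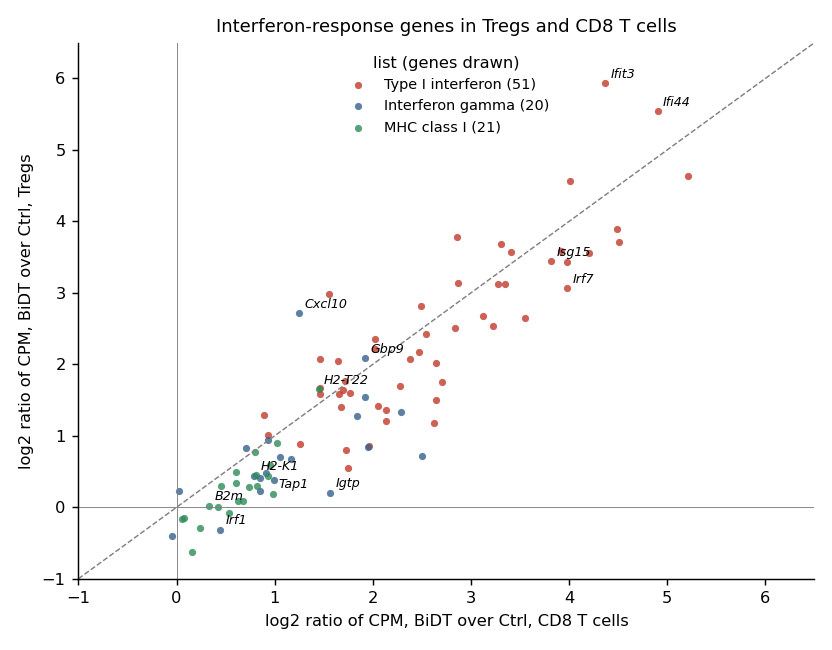
Each point is a gene of the type I interferon, interferon gamma or MHC class I list, with its log2 ratio of BiDT over Ctrl in Tregs (y axis) against that in CD8 T cells (x axis), and the dashed line marks equal ratios. Ifit3 and Ifi44 lie at the top right, and Igtp, Tap1 and Irf1 lie below the line. Genes at 0 UMIs in a library, such as Ifit3b, are not drawn.

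The difference was spread over the cells rather than held by a few. Per 1000 UMIs of a cell, the type I list gave a median of 15.2 in BiDT Tregs (quartiles 9.01 and 23.5, range 2.56 to 48.4) and 3.31 in Ctrl Tregs (quartiles 2.21 and 4.62, range 0.55 to 25.7). The distributions overlapped. Of BiDT Tregs, 118 of 138 (85.5%, 78.5 to 90.9%) were above 6.28, the 90th percentile of Ctrl Tregs, and 25 of 138 were above the highest Ctrl Treg. In Ctrl, 25 of 246 were above that percentile by its definition. These cells share a library, so they are not replicates of the treatment.

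**Figure D4:**
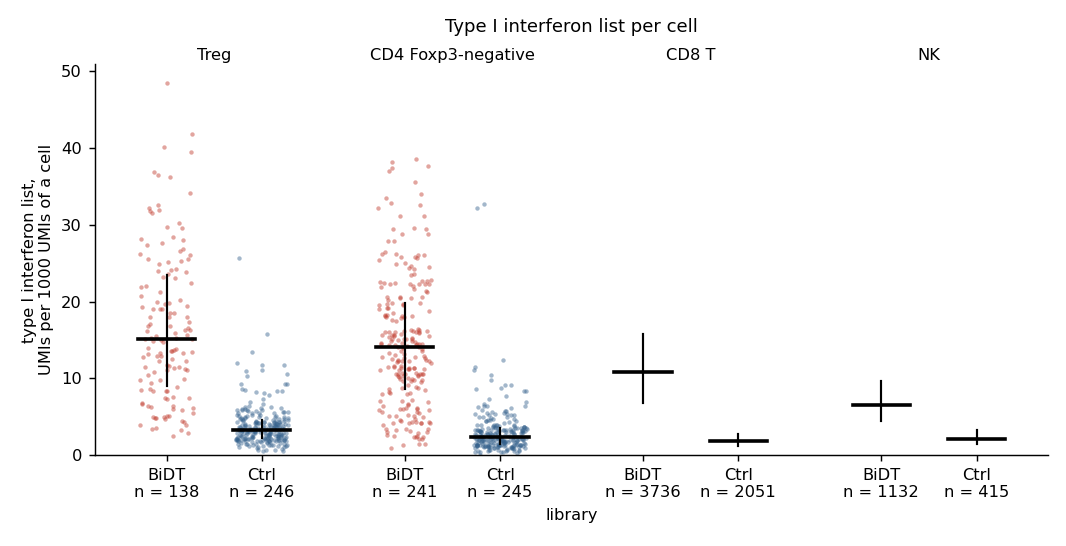
UMIs of the type I interferon list per 1000 UMIs of a cell, for Tregs, Foxp3-negative CD4 T cells, CD8 T cells and NK cells, BiDT left of Ctrl, with the median (horizontal bar) and the quartiles (vertical line), and with 1 point per cell for Tregs and CD4 cells. Most BiDT Tregs lie above the bulk of Ctrl Tregs (medians 15.2 and 3.31), and the ranges overlap.

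The same list was also higher in the other lymphocytes of the BiDT library. Its sum was 14854 CPM in BiDT and 3088 CPM in Ctrl in Foxp3-negative CD4 T cells (4.81-fold), and 11875 CPM in BiDT and 2237 CPM in Ctrl in CD8 T cells (5.31-fold). All 53 measured members were 1.5 times higher in the CD4 cells, where 10.7% of all genes were higher and 7.87% lower, and all 57 in the CD8 T cells, where 9.44% of all genes were higher and 6.43% lower. In NK cells the sums were 7810 CPM in BiDT and 2578 CPM in Ctrl. Of the NK sums, free RNA would give 5059 CPM in BiDT and 1129 CPM in Ctrl. It would give 4744 CPM in BiDT and 641 CPM in Ctrl of the CD4 sums. For the CD8 T cell sums it would give 3191 CPM in BiDT and 454 CPM in Ctrl. Whether the ratio in Tregs differs from those of the other lymphocytes was not tested, with 1 library for each treatment.

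Genes of the interferon gamma response were higher by less. The 24 genes summed to 5190 CPM (4985 to 5402) in BiDT Tregs and 3480 CPM (3359 to 3604) in Ctrl Tregs, or 1.49-fold. Free RNA would give 994 CPM of that sum in BiDT and 313 CPM in Ctrl. Of the 20 measured, 11 were 1.5 times higher and 0 were 1.5 times lower, against 11.8% and 9.0% of all genes. The median log2 ratio of the 20 was 0.69. Without cells holding 2 or more macrophage UMIs the list median was 0.27. That value covers only the members that still had at least 50 UMIs, so the gene sets differ. Gbp9, an interferon-inducible GTPase, was at 179 CPM in BiDT and 42.2 CPM in Ctrl. Irgm1, a GTPase of vacuole defence, had a log2 ratio of 1.28, and of 0.58 after thinning, and Gbp6 of 1.54. Socs1, which inhibits cytokine signalling, had a log2 ratio of 0.94. Cxcl10, the CXCR3 ligand, was at 604 CPM in BiDT and 92.3 CPM in Ctrl, with 43% of the BiDT UMIs in 1 cell, and its log2 ratio was 2.71 with and 2.0 without the largest cells. Irf1, an interferon gamma target, was at 354 CPM in BiDT and 440 CPM in Ctrl, a log2 ratio of -0.31.

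Several of these GTPases were already high in Ctrl Tregs. Igtp was at 615 CPM in BiDT Tregs and 535 CPM in Ctrl Tregs (0.20), whereas it was at 365 CPM in BiDT and 142 CPM in Ctrl in Foxp3-negative CD4 T cells (1.36), and 158 CPM in BiDT and 53.4 CPM in Ctrl in CD8 T cells (1.57). Irgm2 was at 203 CPM in BiDT and 113 CPM in Ctrl in Tregs, and at 93.1 CPM in BiDT and 21.2 CPM in Ctrl in the CD4 cells. Iigp1, which disrupts parasite vacuoles, was at 306 CPM in BiDT and 187 CPM in Ctrl in Tregs, and at 135 CPM in BiDT and 45.9 CPM in Ctrl in the CD4 cells. In each of these 3 genes the Treg level was the highest of the 3 T cell groups in both libraries. Over the list, the median log2 ratio was 0.69 in Tregs (20 genes measured), 0.89 in the CD4 cells (21) and 0.99 in CD8 T cells (23).

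Antigen presentation genes showed small ratios. The 22 MHC class I genes summed to 28526 CPM in BiDT Tregs and 23515 CPM in Ctrl Tregs, a log2 ratio of 0.28. Free RNA would give 4317 CPM of that sum in BiDT and 1535 CPM in Ctrl. Of 21 measured, 4 were 1.5 times higher and 1, Erap1 (-0.63), was 1.5 times lower, against 11.8% and 9.0% of all genes. Reads of the related class I genes can be split uncertainly among them. The highest was H2-T22, a nonclassical class I gene, at 850 CPM in BiDT and 271 CPM in Ctrl (1.65). Tapbp, which encodes tapasin of the peptide-loading complex, was at 559 CPM in BiDT and 299 CPM in Ctrl (0.90). H2-K1, a classical class I heavy chain, was at 7655 CPM in BiDT and 5601 CPM in Ctrl (0.45, 0.39 to 0.51), and the light chain gene B2m had a ratio of 0.02. Tap1, which pumps peptides into the endoplasmic reticulum, was at 561 CPM in BiDT and 492 CPM in Ctrl (0.19), with ratios of 0.94 in the CD4 cells and 0.99 in CD8 T cells.

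Most Treg core genes were within 1.5-fold between the libraries. All 19 together summed to 9856 CPM in BiDT Tregs and 10414 CPM in Ctrl Tregs, and Foxp3, which chose the cells, is among them. Of 15 measured without Foxp3, 0 were 1.5 times higher and 2 were 1.5 times lower, against 11.8% and 9.0% of all genes. The median log2 ratio of the 15 was -0.07. Il2ra was at 1262 CPM in BiDT and 1454 CPM in Ctrl (-0.20). Ctla4 was at 1554 CPM in BiDT and 1817 CPM in Ctrl (-0.23), and Tnfrsf18 at 1178 CPM in BiDT and 1094 CPM in Ctrl (0.11). Ikzf2 was at 945 CPM in BiDT and 640 CPM in Ctrl (0.56, 0.38 to 0.74). Lrrc32, which presents latent TGF-beta on the Treg surface, was at 170 CPM in BiDT and 178 CPM in Ctrl. The lower members were Itgae, the CD103 integrin chain that binds E-cadherin, at 173 CPM in BiDT and 337 CPM in Ctrl (-0.96, -1.34 to -0.60), and Izumo1r, the folate receptor 4 gene, at 164 CPM in BiDT and 268 CPM in Ctrl (-0.71). Itgae was found in 30.4% of BiDT and 50.4% of Ctrl Tregs, and its ratio was -1.42 in Foxp3-negative CD4 T cells and -1.33 in CD8 T cells. Among Tregs with a Cd4 UMI Itgae was at -0.54, and with 2 Foxp3 UMIs required Izumo1r was at -0.58.

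**Figure D5:**
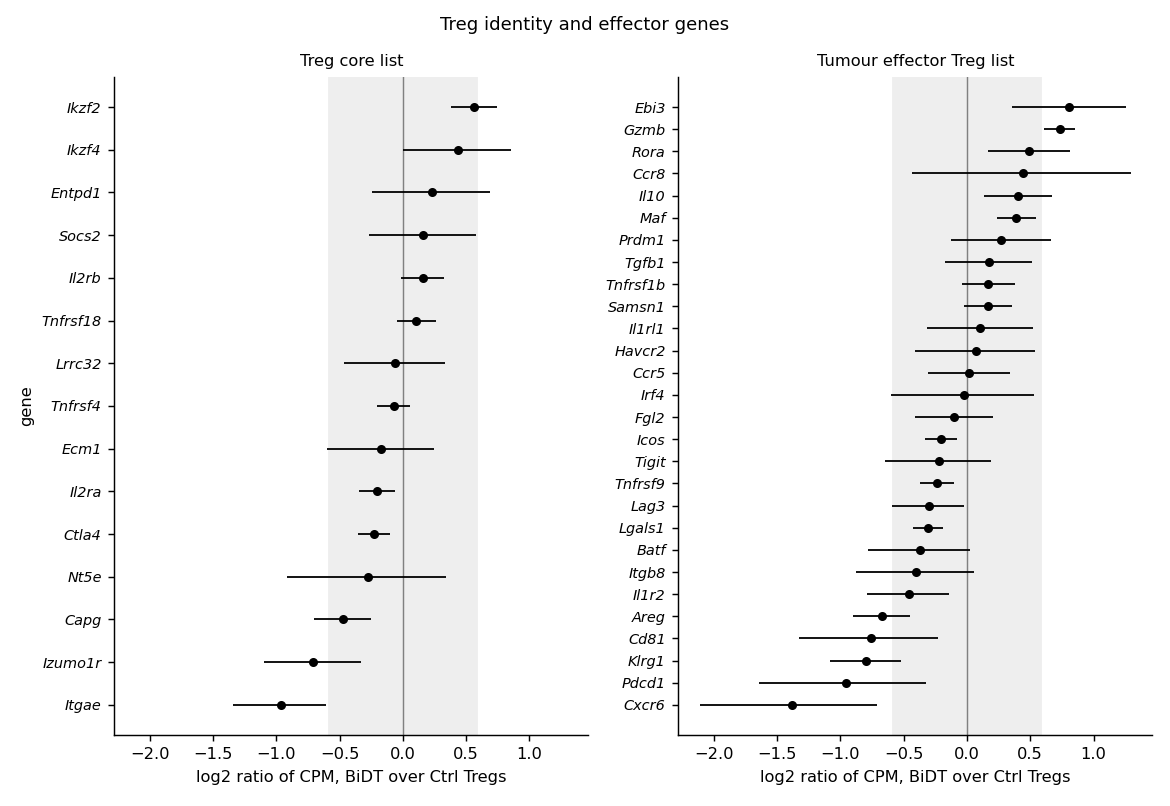
Log2 ratio of BiDT over Ctrl in Tregs (x axis) for each measured gene of the Treg core list without Foxp3 (left) and of the tumour effector list (right), with 95% intervals of counting error and the band within 1.5-fold shaded. Most genes lie inside the band, with Itgae, Izumo1r, Cxcr6, Pdcd1, Klrg1, Cd81 and Areg below it and Gzmb and Ebi3 above it.

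Effector genes of tumour Tregs lay on both sides of equality. The 28 genes summed to 13924 CPM in BiDT Tregs and 14134 CPM in Ctrl Tregs, and 2 were 1.5 times higher and 5 were 1.5 times lower. Of all genes, 11.8% were 1.5 times higher and 9.0% were 1.5 times lower. Gzmb, the granzyme B protease, was at 2195 CPM in BiDT and 1322 CPM in Ctrl (0.73, 0.61 to 0.85) and was detected in 76.8% of BiDT and 72.0% of Ctrl Tregs. The free-RNA level of Gzmb was 257 CPM in BiDT and 16.4 CPM in Ctrl, and CD8 T cells had 4042 CPM in BiDT and 1145 CPM in Ctrl. Ebi3, a subunit of interleukin 35, was at 175 CPM in BiDT and 100 CPM in Ctrl (0.81), and at 0.44 after thinning. The ratio of Gzmb was 1.44 among Tregs with 2 Foxp3 UMIs. Il10, the suppressive cytokine, was at 412 CPM in BiDT and 311 CPM in Ctrl (0.41), below 1.5-fold.

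Lower in BiDT Tregs were receptors and a growth factor. Areg, the EGF receptor ligand amphiregulin that tissue Tregs release in repair, was at 468 CPM in BiDT and 747 CPM in Ctrl (-0.67, -0.90 to -0.45), and was found in 22.5% of BiDT and 46.3% of Ctrl Tregs. Klrg1, a lectin receptor of terminally differentiated Tregs, was at 304 CPM in BiDT and 529 CPM in Ctrl (-0.80, -1.08 to -0.52), and was found in 41.3% of BiDT and 58.5% of Ctrl cells. Thinned to 1000 UMIs, Areg was expected in 16.7% of BiDT and 32.5% of Ctrl Tregs, and Klrg1 in 24.4% of BiDT and 35.7% of Ctrl Tregs, so both were detected in fewer BiDT Tregs at equal depth too. Both ratios were nearer 0 in some subsets: Areg was at -0.21 among Tregs with a Cd4 UMI, and Klrg1 was at -0.41 there and at -0.068 without cells holding 2 or more macrophage UMIs. Cxcr6, a chemokine receptor of tissue T cells, was at 47.5 CPM in BiDT and 123 CPM in Ctrl (-1.38), and Pdcd1, which encodes PD-1, at 56.1 CPM in BiDT and 109 CPM in Ctrl (-0.96). Cd81, a tetraspanin, had a ratio of -0.76, and of -1.57 without the largest cells. Icos had a ratio of -0.20, Tnfrsf9 of -0.23, Lag3 of -0.30 and Tigit of -0.22. Havcr2, which encodes TIM3, the target named in the series title, was at 129 CPM in BiDT and 123 CPM in Ctrl (0.07). Ccr8 was at 45.3 CPM in BiDT and 33.3 CPM in Ctrl, with an interval of -0.44 to 1.30 on the log2 scale.

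Receptor genes for the interferons were within 1.5-fold. Ifnar1 had a log2 ratio of 0.12, Ifnar2 of 0.24, and the interferon gamma receptor chains Ifngr1 of 0.14 and Ifngr2 of -0.55 (-1.59 to 0.39). Of 11 measured genes of this list 1 was past 1.5-fold, Lgals9, the TIM3 ligand galectin-9, at 110 CPM in BiDT and 42.2 CPM in Ctrl (1.38, 0.75 to 2.03). With 2 Foxp3 UMIs required Lgals9 was at 0.58, just below 1.5-fold. Of 9 measured immune checkpoint genes, 0 were 1.5 times higher and 2 were 1.5 times lower, Pdcd1 and Cd200r1 (-0.75, and -0.21 with 2 Foxp3 UMIs required). Of 14 costimulation and TNF receptor genes, 0 were past 1.5-fold on either side. Beside these counts, 11.8% of all genes were 1.5 times higher and 9.0% were 1.5 times lower.

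Of 8 measured genes of a resting, recirculating state, 2 were 1.5 times higher and 1 was 1.5 times lower. Of all genes, 11.8% were 1.5 times higher and 9.0% were 1.5 times lower. Klf2, a factor of lymphocyte egress, was at 393 CPM in BiDT Tregs and 197 CPM in Ctrl Tregs (1.00, 0.69 to 1.30), and its ratio was 1.39 without the largest cells and 1.63 without macrophage-UMI cells. Ccr7, a homing receptor, and Il7r, the interleukin 7 receptor gene, were both at -0.32. Lef1, a factor of naive T cells, was at -0.63 but 0.079 among Tregs with a Cd4 UMI, and Ly6c1 was at 1.79 with 56% of its BiDT UMIs in 1 cell. No helper lineage factor of 7 measured was past 1.5-fold, with Tbx21 and Gata3 both at 0.17. Helper cytokines were nearly absent, and of 14 cytokine genes 2 reached 50 UMIs. Il17a had 0 UMIs in BiDT Tregs and 4 in Ctrl Tregs, Il4 had 0 in BiDT and 3 in Ctrl, and Ifng had 11 in BiDT and 5 in Ctrl.

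Sterol synthesis genes were lower over all BiDT Tregs, but the list median was not 1.5 times lower among Tregs with 2 Foxp3 UMIs or with a Cd4 UMI. Of 10 measured sterol synthesis genes, 0 were 1.5 times higher and 6 were 1.5 times lower, against 11.8% and 9.0% of all genes. The 21 genes summed to 522 CPM (459 to 592) in BiDT Tregs and 856 CPM (797 to 919) in Ctrl Tregs. The median ratio of the measured 10 was -0.72 over all Tregs. Over the members still with at least 50 UMIs it was -0.085 with 2 Foxp3 UMIs and 0.24 with a Cd4 UMI. These medians are thus not all of the same genes. Of the 10, Fdps, which makes farnesyl diphosphate, was at 25.9 CPM in BiDT and 68.9 CPM in Ctrl. Of 20 glycolysis and hypoxia genes, 2 were 1.5 times lower, Gapdh (-0.93) and Bnip3 (-0.63), a share near the 9.0% of all genes. With 2 Foxp3 UMIs required Bnip3 was at -0.16.

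Proliferation genes were close in sum, but their values rested on few cells. Of 22 proliferation genes, 3 were 1.5 times higher, Ube2c (0.88), Mcm5 (0.78) and Tk1 (0.76), and 1, Ccnb2 (-1.66), was lower. Of all genes, 11.8% were 1.5 times higher and 9.0% were 1.5 times lower. The proliferation sums were 3436 CPM in BiDT and 3423 CPM in Ctrl. Without the largest cells Mcm5 was at 0.13 and Tk1 at -0.40, and among Tregs with a Cd4 UMI Ube2c was at 0.036. The list median was -0.067 over all Tregs, -0.48 without the largest cells and -0.81 with 2 Foxp3 UMIs. Each of these medians covers the members with at least 50 UMIs in those cells, so the gene sets can differ. Mki67, a marker of cycling, had a ratio of -0.12, with 43% of its BiDT UMIs in 1 cell, and -0.84 without the largest cells. Of 16 death and survival genes, Bcl2l1, which encodes the survival protein BCL-XL, was at 248 CPM in BiDT and 156 CPM in Ctrl (0.67), and Bcl2a1d (-1.38), Bcl2a1b (-0.94) and Bax (-0.73) were lower. Among Tregs with a Cd4 UMI Bcl2a1b was at -0.49, and without macrophage-UMI cells Bax was at -0.29. Bcl2a1b and Bcl2a1d are near-identical copies, so their split is uncertain.

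Early response genes, which cells switch on within minutes of a stimulus or of handling, lay mostly within 1.5-fold. Of 22 of them 5 were 1.5 times higher, against 11.8% of all genes, and 1 was lower, with Dusp1, a MAP kinase phosphatase, at 1178 CPM in BiDT and 696 CPM in Ctrl (0.76), Fosl2 at 0.59, Atf3 at 0.76 within reach of free RNA, and the heat shock gene Hspa1a at -0.88. Egr1 was at 1.21 and Ier3 at 1.19, and without the largest cells Egr1 was at 0.18 and Ier3 at 0.54. Without cells holding 2 or more macrophage UMIs Dusp1 was at 0.52 and Hspa1a at -0.25, and with TMM scaling Fosl2 was at 0.50. Of 14 IL-2 and STAT5 genes 2 were 1.5 times higher, Socs1 and Myc (0.78, and 0.08 without the largest cells), and 0 were lower. Of 8 chemokine receptors 2 were 1.5 times lower, Cxcr6 and Cxcr3 (-0.63, and 0.045 among Tregs with 2 Foxp3 UMIs), against 9.0% of all genes. Among the T cell receptor genes that did not choose the cells, Trac, the alpha chain constant gene, was at 466 CPM in BiDT and 715 CPM in Ctrl (-0.62), and it was at -0.12 among Tregs with a Cd4 UMI.

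By rank, 12 of the 15 highest named genes belonged to the type I list. The others were Slfn4, Csf2 and Cstdc4. Slfn4, a Schlafen family gene, was at 568 CPM in BiDT and 18.9 CPM in Ctrl, with 30.0% of its BiDT UMIs in 1 cell and a free-RNA level of 251 CPM in BiDT. Of the BiDT UMIs of Csf2 and Cstdc4, 93% and 92% came from 1 cell, and the ratio of Csf2 was 4.84 with and 1.06 without the largest cells. Among the 15 lowest, Ccl24 (-3.15) and Plet1 (at most -3.10, with 0 UMIs in BiDT) drew 81% and 86% of their Ctrl UMIs from 1 cell. Also among them were Ndufs8, a subunit of respiratory complex I, at 25.9 CPM in BiDT and 78.9 CPM in Ctrl, Ndufb6 of the same complex at 43.2 CPM in BiDT and 116 CPM in Ctrl, and Hsd11b1, a glucocorticoid-activating enzyme, at 19.4 CPM in BiDT and 56.7 CPM in Ctrl. Hsd11b1 was at -1.55 over all Tregs and -0.61 among Tregs with a Cd4 UMI, and Ndufb6 at -1.42 over all and -0.78 there.

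Genes of other lineages were present in the Treg barcodes. The 12 macrophage genes summed to 1619 CPM in BiDT Tregs and 1454 CPM in Ctrl Tregs, with none at 0, and 75 of 138 BiDT cells (54.3%) and 174 of 246 Ctrl cells (70.7%) held 2 or more of their UMIs. The 10 NK genes summed to 423 CPM in BiDT and 74.5 CPM in Ctrl. Gzma had 82 UMIs in BiDT, a level within reach of free RNA, and 0 in Ctrl, while Xcl1 was at 0 in BiDT and Eomes at 0 in Ctrl. The 8 B and plasma cell genes summed to 533 CPM in BiDT and 378 CPM in Ctrl, with the B cell gene Ms4a1 and the plasma cell gene Mzb1 at 0 in both and Cd79a at 0 in Ctrl. The 9 dendritic cell genes summed to 71.2 CPM in BiDT and 76.7 CPM in Ctrl, with Clec9a at 0 in both, Cd209a at 0 in BiDT, and Xcr1 and Siglech at 0 in Ctrl. The 6 neutrophil genes summed to 227 CPM in BiDT and 48.9 CPM in Ctrl, with 67% of the BiDT and 39% of the Ctrl UMIs in 1 cell and Retnlg at 0 in both. The 8 fibroblast or tumour genes summed to 293 CPM in BiDT and 196 CPM in Ctrl, with 78.7% of the BiDT and 33.0% of the Ctrl UMIs in 1 cell, Krt8 at 0 in both and Krt18 at 0 in BiDT. The 4 gamma delta T genes gave 3 UMIs in BiDT and 2 in Ctrl, with Trdc at 0 in both. Without cells holding 2 or more macrophage UMIs the type I interferon median was 1.88. It covers the members that still had at least 50 UMIs, not all 52 measured over all Tregs. The part of the other lineages in the ratios was not tested.

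Set against Foxp3-negative CD4 T cells of the same library, Treg genes lay on both sides. Among the high ratios in both libraries were those of Sparc, at 3.60 in BiDT and 3.52 in Ctrl, and Cald1, at 3.58 in BiDT and 2.99 in Ctrl. These are matrix and cytoskeletal genes, and 74.0% of the Sparc and 88.2% of the Cald1 UMIs of BiDT Tregs came from 1 cell. Klrg1 was higher in Tregs by a log2 ratio of 3.15 in BiDT and 2.96 in Ctrl, and Lrrc32 by 2.96 in BiDT and 2.85 in Ctrl. Itgb8, the integrin chain that activates TGF-beta, was higher by 2.63 in BiDT and 2.81 in Ctrl, and Ikzf2 by 2.61 in BiDT and 2.39 in Ctrl. Gzmb was higher by 2.02 in BiDT and 2.29 in Ctrl. Lower in Tregs were several genes linked to Tregs or to tissue T cells, and helper genes. Cxcr6 was at -3.82 in BiDT and -2.54 in Ctrl, and Nrp1, a receptor of thymic Tregs, at -1.34 in BiDT and -2.45 in Ctrl. Il1r2, the interleukin 1 decoy receptor gene, was at -1.11 in BiDT and -1.05 in Ctrl, and Fgl2 at -1.07 in BiDT and -0.48 in Ctrl. Il13, a type 2 cytokine, was at -8.37 in BiDT and -9.06 in Ctrl, and Tnfsf11, which encodes RANKL, at -3.59 in BiDT and -4.44 in Ctrl. Cd40lg, the helper ligand of CD40, was at -3.04 in BiDT and -5.19 in Ctrl, and Pdcd1 at -2.73 in BiDT and -1.50 in Ctrl. Areg was at -1.35 in BiDT and 0.25 in Ctrl, and it was at 1192 CPM in BiDT and 628 CPM in Ctrl in the CD4 cells. The comparison group needed a Cd4 UMI and Tregs did not, and 49.0% of its BiDT cells and 48.6% of its Ctrl cells carried at least 2 of the 4 Treg markers.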

How the data were processed

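The authors deposited raw UMI counts per gene and barcode, 1 matrix per library. Per the submitters' processing notes these came from Cell Ranger 7.1.0 on GRCm39, and per the labels' protocols from a 10x Genomics 3′ workflow. Their barcodes consist of 3 joined stretches of 9 bases, unlike the form that Cell Ranger outputs. No annotation release is named in the labels or notes. The files list 32589 genes. A symbol shared by several genes (48 in all) was kept out of the lists, and 9 list symbols were not found.

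Filters were at least 500 UMIs and at most 10% mitochondrial UMIs. UMIs of all Tregs of a library were summed and divided by their total (CPM), and log2 ratios are BiDT over Ctrl. Genes with at least 50 UMIs over both libraries were measured, and a 1.5-fold ratio was the size used for counting. Intervals are exact (Poisson for sums, binomial for shares and for ratios of counts), at 95%, and cover counting error only. A ratio against 0 UMIs used a floor of 3 UMIs over the group. Comparison cells had a Cd3 UMI, Cd4 and no Foxp3 (CD4), a Cd3 and a Cd8 UMI (CD8 T), Ncr1 without Cd3 (NK) or Csf1r without Cd3 (macrophage or monocyte), and lacked the other genes of the rule. Treg shares and sums at 1000 UMIs come from 1 seeded random draw, and detection at 1000 UMIs is the expected value.

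Free RNA was taken as the macrophage list's share of Treg UMIs over its share in all filtered cells (21.4% in BiDT, 11.9% in Ctrl), and a gene under 2 times that fraction of its overall CPM was within reach of it. Named genes were the 15 highest and 15 lowest ratios with at least 50 CPM in the higher library and an interval excluding equality, leaving out genes within reach of free RNA, plus the markers and list members. Some of these are not reported here. Members and lists were chosen with earlier results of these data known. Alternatives were other UMI, mitochondrial, Foxp3, Cd4, macrophage-UMI and size limits, TMM scaling, equal cell weights and thinning. The scripts were checked on simulated data. Tools were edgeR 4.0.16 (TMM factors only) in R 4.3.3, and pandas 2.3.3, scipy 1.17.1 and numpy 2.4.6 in Python 3.11.15.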

Additional observations from a re-analysis of the deposited data

Results flagged for a closer look

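Areg was lower in BiDT Tregs and higher in BiDT Foxp3-negative CD4 T cells. Its log2 ratio of BiDT over Ctrl was -0.67 in Tregs and 0.92 in the CD4 cells, where it stood at 1192 CPM in BiDT and 628 CPM in Ctrl. It was found in 21.6% of BiDT and 28.6% of Ctrl CD4 cells, so the level and the share of positive cells pointed opposite ways there. Those CD4 cells needed a Cd4 UMI, and among Tregs with a Cd4 UMI Areg was at -0.21, within 1.5-fold. Sparc, an extracellular matrix gene, had a ratio of 1.03 in Tregs and -1.58 in CD8 T cells. Of its UMIs in BiDT Tregs, 74.0% came from 1 cell, and the ratio was -0.08 without the largest cells. With 1 library for each treatment, neither difference between cell types was tested.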

How the results depend on the processing

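No paired analysis was possible because each treatment has 1 library and the labels give no replicate numbers. The log2 ratio of the Treg share of filtered cells was -1.87 without cells holding 2 or more macrophage UMIs, -1.46 with 2 Foxp3 UMIs and -1.33 with a Cd4 UMI, and it ranged from -1.87 to -0.91 over all alternatives. For the share of Cd3-positive cells it was -2.25 with 2 Foxp3 UMIs and -2.12 with a Cd4 UMI, and for Tregs per CD8 T cell it was also -2.25 and -2.12. The Treg core median was -0.35 without macrophage-UMI cells, and the type I interferon median was 1.69 after thinning. A list median under an alternative covers only the members past the UMI minimum under that alternative. The gene sets of these medians can thus differ from those over all Tregs. Genes 1.5 times higher numbered 558, and 162 without macrophage-UMI cells, 176 after thinning and 1254 with a minimum of 20 UMIs, while those 1.5 times lower numbered 427, and 180, 174 and 984 in the same order. The genes measured numbered 4745, and 1338, 1448 and 7751 in that order. Of 3540 values of 323 genes under alternatives, 3017 stayed within the interval of the value over all Tregs, 501 moved beyond it and 22 turned sign from a value past 1.5-fold. Values within 1.5-fold also turned sign and are not all listed: the chemokine receptor median was 0.13 with 2 Foxp3 UMIs, the T cell receptor median 0.16 and the Treg core median 0.16 with a Cd4 UMI, and the proliferation median ranged from -0.81 to 0.055. Of values past 1.5-fold, signs turned for the sterol synthesis median (0.24 with a Cd4 UMI) and for these genes. With 2 Foxp3 UMIs they were C1qa (-0.52), Cxcr3 (0.045), Myc (-0.15), Sox9 (-2.17), Sparc (-2.94) and Tk1 (-0.80). With a Cd4 UMI they were G0s2 (-0.46), Lef1 (0.079), Sox9 (-1.83), Sparc (-2.98) and Tk1 (-0.89). Without macrophage-UMI cells they were C1qa (-1.06), Ier3 (-0.21), Prf1 (-0.91), Tk1 (-0.48) and Tyrobp (0.26). Without the largest cells they were Sparc (-0.082) and Tk1 (-0.40), after thinning Egr1 (-0.11), Mcm5 (-0.040) and Sox9 (-0.17), and with equal cell weights Sox9 (-0.39). The cause was not tested. A minimum of 1000 UMIs changed nothing, since no filtered cell lay below it.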

Other observations

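Maf, a factor of interleukin 10 production, was at 1258 CPM in BiDT Tregs and 959 CPM in Ctrl Tregs, against 538 CPM in BiDT and 396 CPM in Ctrl in Foxp3-negative CD4 T cells. Tnfrsf1b, the TNF receptor 2 gene, was at 637 CPM in BiDT Tregs and 566 CPM in Ctrl Tregs, against 316 CPM in BiDT and 276 CPM in Ctrl in those cells.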
